A study of Mus musculus with 3 samples.

Results

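Transcripts of 10 transcription factor genes of the AP-1 and EGR families were followed through monocytes and monocyte-derived antigen-presenting cells (APCs) in mice with experimental autoimmune encephalomyelitis (EAE), used as a model of multiple sclerosis. The genes were Fos, Fosb, Fosl2, Jun, Junb, Jund and Batf of the AP-1 family, and Egr1, Egr2 and Egr3 of the EGR family. They were listed by name, with earlier results of these data known, and all 10 were among the 22238 genes listed for every library. In brief, 8 of the 10 transcripts were called higher in spinal cord than in bone marrow monocytes, against 13.8% of 10072 genes compared. Fos and Batf were not called different. None of the 10 differed by more than 2-fold between APCs and spinal cord monocytes. Few of all 9734 genes compared there were called, 1.93% higher and 1.70% lower.

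The 3 populations were sorted from wild-type female mice on a C57BL/6J background, each as 1 library of cells pooled across mice. Every mouse had been immunized with myelin oligodendrocyte glycoprotein (MOG) peptide in complete Freund's adjuvant, had received 250 ng of pertussis toxin at 2 and 24 h, and was used at days 14 to 15, so there was no unimmunized group among the libraries. Bone marrow monocytes were sorted as CD45+ CD11b+ Ly6Chi Ly6G- CD11c- cells, spinal cord monocytes as CD45+ CD11b+ CD64+ Ly6Chi Ly6G- cells, and APCs as the CD64+ cells of the cord with low or no Ly6C. The spinal cords were digested with collagenase and DNase at body temperature and passed over a Percoll gradient before the sort, whereas bone marrow was flushed and enriched with a monocyte isolation kit. Tissue, inflammation and cell preparation therefore cannot be told apart between bone marrow and spinal cord, whereas both cord populations came from the same kind of digest. The monocyte populations are named marrow and cord monocytes from here on.

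AP-1 is a dimer of basic leucine zipper proteins, in most cells a FOS protein paired with a JUN protein, and BATF is a smaller family member that pairs with JUN proteins and works with IRF factors in immune cells. EGR proteins bind GC-rich sites through zinc fingers. Most of these genes are immediate early genes, which are transcribed within minutes of a stimulus through kinases acting on factors already present, such as SRF with its ELK partners and CREB, and their mRNAs are short-lived. The stimuli include growth factors, cytokines and microbial products, and also handling of the cells and warm enzymatic digestion of a tissue.

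The sequence just upstream of the start site shows where such factors could bind, and 150 bases are given for the 6 genes whose RefSeq start lay within 51 bases of a transcript start in the gene annotation, on GRCm38.p6, from 5′ to 3′ on the strand of the gene. Capitals mark a CRE half-site (TGACGT or its reverse complement), the recognition letters of CREB, a CArG box of SRF, or an EGR site (GCGTGGGCG or GCGGGGGCG). Fos lies on the plus strand at chr12:85473740-85473889, Fosb on the minus strand at chr7:19310046-19310195, Jun on the minus strand at chr4:95052223-95052372, Junb on the minus strand at chr8:84978749-84978898, Egr2 on the plus strand at chr10:67537719-67537868 and Batf on the plus strand at chr12:85686570-85686719.
Fos: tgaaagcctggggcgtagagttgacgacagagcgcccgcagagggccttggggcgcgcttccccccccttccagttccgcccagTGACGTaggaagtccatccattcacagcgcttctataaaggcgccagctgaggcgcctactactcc
Fosb: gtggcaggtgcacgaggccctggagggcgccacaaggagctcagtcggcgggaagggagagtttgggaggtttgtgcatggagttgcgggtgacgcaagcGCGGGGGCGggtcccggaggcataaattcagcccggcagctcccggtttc
Jun: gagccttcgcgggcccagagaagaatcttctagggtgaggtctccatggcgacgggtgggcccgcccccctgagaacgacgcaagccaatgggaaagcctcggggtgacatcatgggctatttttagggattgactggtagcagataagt
Junb: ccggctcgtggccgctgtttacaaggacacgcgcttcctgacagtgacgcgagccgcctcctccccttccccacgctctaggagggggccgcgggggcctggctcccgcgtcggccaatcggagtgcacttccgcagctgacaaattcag
Egr2: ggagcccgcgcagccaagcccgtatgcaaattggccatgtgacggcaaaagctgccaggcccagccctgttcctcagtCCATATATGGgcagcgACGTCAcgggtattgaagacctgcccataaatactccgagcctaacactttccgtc
Batf: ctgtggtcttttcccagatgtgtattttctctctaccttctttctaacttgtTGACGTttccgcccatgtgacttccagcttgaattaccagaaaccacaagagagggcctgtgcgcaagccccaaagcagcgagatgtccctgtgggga

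The motifs were searched on both strands of windows from 250 bases before to 50 bases after the RefSeq start. A CRE half-site stood in the windows of Fos, Egr2 and Batf, with its first base at -66, -56 and -98 from the start, and in 8.98% of 16519 promoters of the same length. Only TGACGT was searched, so TGACG before another base, as in the printed Fosb and Junb sequences, was neither marked nor counted. The half-site was added after the sequences had been seen. The CArG box stood in the window of Egr2 alone among the 6, at -72, and in 1.54% of all promoters, and an EGR site stood in that of Fosb, at -50, and in 4.84%. The full CRE (TGACGTCA, 2.43% of promoters), which would contain the half-site, and the AP-1 site (TGAGTCA or TGACTCA, 4.58%) were in none of the 6 windows. Only these exact letters were searched, so near matches, such as TGACATCA in the printed Jun sequence, were not counted. A match describes letters, not a bound site, and sequence beyond the windows was not searched.

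The libraries held 26116588 to 32115707 estimated reads over the common genes. Levels are given as TPM, a per-length share of all transcripts, rescaled to the same sum over the common genes. A log2 fold change was taken from the reads themselves, scaled by median-of-ratios size factors, and is given with its 98% interval. A gene was called higher or lower if the whole interval exceeded a 2-fold change and either library compared held it above 3 rescaled TPM, and genes above this level are referred to as active. With 1 library per population there is no replicate check and no p-value, and every interval covers counting error only, in reads that include PCR copies and so are not independent molecules. The APC values list fewer genes than the monocyte values, 22242 against 54432. The common genes held 99.99% of the deposited TPM of APCs, but 84.9% in marrow and 85.3% in cord monocytes. In comparisons with APCs, a difference in the set of transcripts cannot be told apart from one of the cells, and its part was not tested. For the APC sample, 1 descriptive field names bone marrow while its title and tissue label name the spinal cord.

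The populations were checked against marker genes. The APC library had the highest summed level of 6 APC markers, 22848 TPM against 9420 in cord monocytes and 669 in marrow monocytes, and Ly6c2 fell from 3602 TPM in cord monocytes to 1067 in APCs, the protein of which was used in the sort. Markers of other cells moved as well. The summed level of 8 neutrophil markers was 7830 TPM in marrow monocytes, 1317 in cord monocytes and 1399 in APCs, with the defining gene Ly6g at 1.59 to 2.62 TPM. The 8 microglial markers summed to 226, 500.0 and 985 TPM, of which 2, 7 and 8 were above 3 TPM, with Sall1 and Slc2a5 at 0 reads in marrow monocytes. The 8 T and NK cell markers summed to 4.09, 54.9 and 81.7 TPM, with Cd3g, Trac, Cd4 and Ncr1 at 0 reads in marrow monocytes. The sums of B cell markers were 200.5, 25.4 and 43.9 TPM, of conventional dendritic cell markers 38.4, 10.7 and 29.1 TPM, of other CNS macrophages 15.7, 36.8 and 51.1 TPM, of endothelium 17.4, 75.6 and 45.7 TPM, of neurons and glia 76.1, 54.7 and 50.8 TPM, and of erythroid cells and progenitors 242, 76.3 and 31.6 TPM. A sum does not give the direction of each gene. Of 4 active neuron and glia markers, 3 were called higher in cord than in marrow monocytes and 1 lower. Of 4 active erythroid and progenitor markers, 2 were called higher there and 2 lower. Of 5 active dendritic cell markers, 4 were called higher in APCs than in marrow monocytes and 1 lower. Against cord monocytes, 3 of 5 were called higher in APCs and none lower. The part of these cells in the values below was not tested, and in pooled RNA a change in the share of expressing cells cannot be told apart from a change per cell.

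Together, the 10 transcripts made up 2595 TPM in marrow monocytes, 6106 in cord monocytes and 5320 in APCs. Between marrow and cord monocytes, 8 of the 10 were called higher and none lower, where 13.8% of 10072 active genes were called higher and 10.7% lower. Egr2 and Egr3 were active through the spinal cord library alone, and of the 8 members above 3 TPM in both monocyte libraries 6 were called higher. The median log2 fold change was 2.28 over the 10 members and 2.27 over those 8, against -0.15 over all active genes. If each library was assumed to vary with a coefficient of variation of 0.4, 3 of the 8 calls, those of the EGR genes, were left. From cord monocytes to APCs, 0 of 10 were called, where 1.93% of 9734 active genes were called higher and 1.70% lower. With shares this low, 0 calls among 10 genes is not particular to the members. The 98% intervals of all 10 lay within a 2-fold change. In APCs against marrow monocytes, the same 8 genes were called higher, where 14.0% of 10190 active genes were called higher and 11.8% lower. The comparisons share libraries and do not stand as separate evidence.

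**Figure D1:**
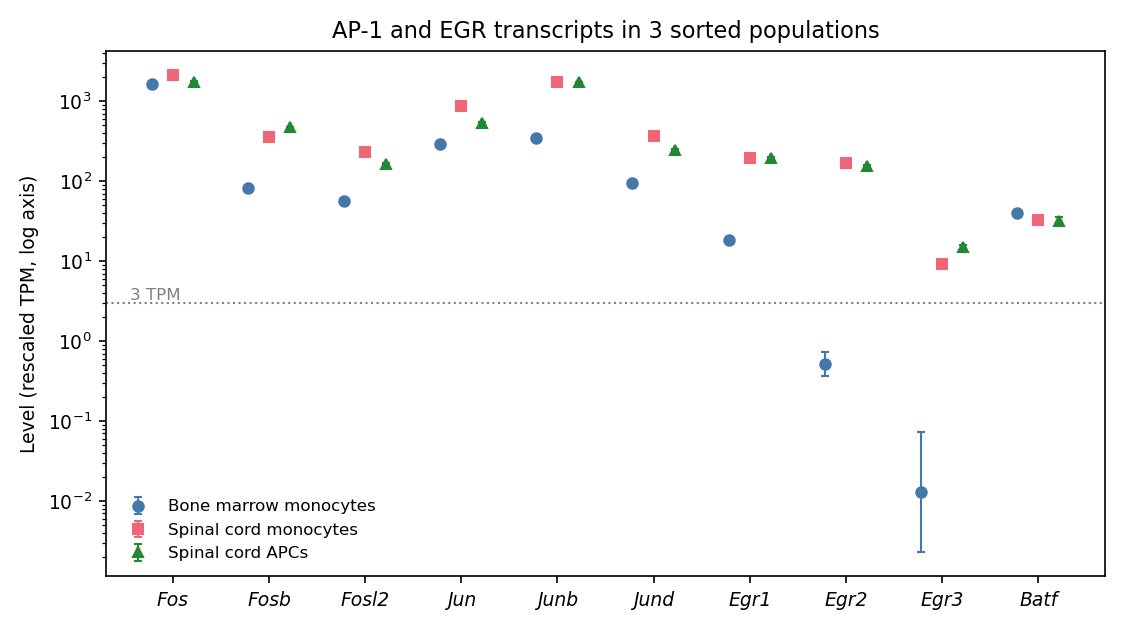
Level of each of the 10 genes in the 3 libraries, as rescaled TPM on a log axis, with bars for the 95% Wilson interval of the read count. Fos is the highest member in every library, 9 genes stand above their marrow interval in both cord libraries, and Egr2 and Egr3 lie below 3 TPM in marrow monocytes only.

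Fos, the usual partner of JUN proteins, was at 1665 TPM in marrow monocytes, 2143 in cord monocytes and 1769 in APCs. It was the most abundant member in each library, and held rank 96 of 22238 genes in marrow monocytes, rank 65 in cord monocytes and rank 86 in APCs. Its log2 fold change in cord over marrow monocytes was 0.72 (0.70 to 0.74), a 1.65-fold difference that did not reach the 2-fold threshold, and was 0.36 on the ratio of rescaled TPM. From cord monocytes to APCs it was -0.26 (-0.28 to -0.24).

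Fosb and Fosl2, which encode other partners of JUN proteins, differed more. Fosb was at 81.9 TPM in marrow monocytes, 358 in cord monocytes and 472 in APCs, and its log2 fold change between the monocytes was 2.28 (2.23 to 2.33), or 4.87-fold. It was 1 of only 2 members, with Egr3, whose level in APCs lay above that in cord monocytes by its interval, at 0.38 (0.35 to 0.41), short of 2-fold. In the same order, Fosl2 was at 56.1, 230 and 165 TPM. It differed by 2.26 (2.21 to 2.30) on the log2 scale between the monocytes and by -0.38 (-0.41 to -0.35) from cord monocytes to APCs. The make-up of the FOS family differed between the libraries. Fos gave 92.3% of the family's summed TPM in marrow monocytes, 78.5% in cord monocytes and 73.5% in APCs, while Fosb gave 4.54%, 13.1% and 19.6%.

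All 3 JUN genes were called higher in cord than in marrow monocytes. Junb, a JUN protein often described as restraining JUN, had the largest difference of the AP-1 members, with 345 TPM in marrow monocytes, 1738 in cord monocytes and 1727 in APCs. Its log2 fold change between the monocytes was 2.66 (2.63 to 2.69), or 6.32-fold, and between the cord populations -0.04 (-0.06 to -0.01), a value that changed sign with other scaling. Junb was the second most abundant member in every library, and in APCs its level came within 1.02-fold of that of Fos.

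Jun, the founding JUN gene, was at 295 TPM in marrow monocytes, 868 in cord monocytes and 540 in APCs. Its log2 fold change was 1.89 (1.86 to 1.92) between the monocytes and -0.72 (-0.75 to -0.70) from cord monocytes to APCs, the largest fall of a member between the cord populations. Jund, which is present in many resting cells, was at 93.9, 365 and 249 TPM, and the same log2 differences were 2.28 (2.21 to 2.35) and -0.57 (-0.62 to -0.52). The JUN family rose as a sum from 734 to 2971 TPM between the monocyte libraries, past the sum of the FOS family, which was 1803 and 2730 TPM. Within it, Junb gave 46.9% of the sum in marrow monocytes, 58.5% in cord monocytes and 68.6% in APCs, and Jun gave 40.3%, 29.2% and 21.5%. Each JUN gene overlaps a gene on the other strand, Junb with Prdx2, Jun with Junos and Jund with Gm11175. Prdx2 had 3011, 1938 and 1708 reads, fewer in the cord libraries, where Junb had 51608 and 56138. Junos had 24 reads in marrow and 280.0 in cord monocytes, beside 18495 and 48989 reads of Jun. Neither Junos nor Gm11175 is listed for APCs.

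**Figure D2:**
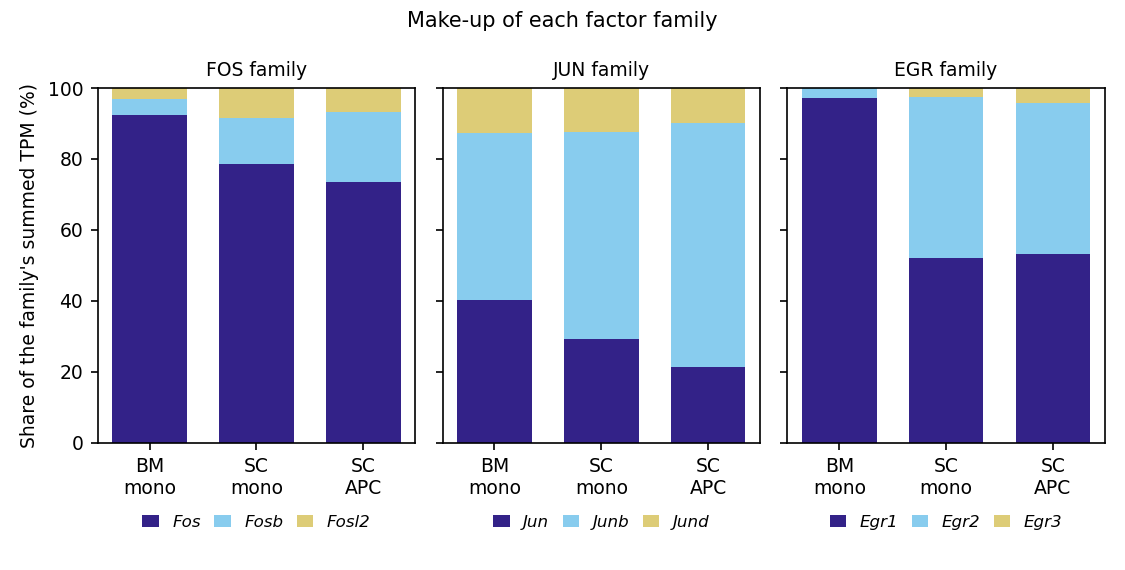
Share of each gene in the summed rescaled TPM of its family, in percent, for monocytes of bone marrow (BM) and spinal cord (SC) and for APCs of the cord. The share of Fos falls from 92.3% to 73.5% and that of Jun from 40.3% to 21.5% across the libraries, and Egr1, at 97.2% in marrow monocytes, gives way to Egr2, at 45.3% in cord monocytes.

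The largest differences were in the EGR genes. Egr1, the most widely induced of them, was at 18.4 TPM in marrow monocytes, 194 in cord monocytes and 195 in APCs. Its log2 fold change between the monocytes was 3.72 (3.62 to 3.83), or 13.2-fold, and between the cord populations it was -0.03 (-0.07 to 0.02), an interval that held 0. Egr2, known in myeloid cells as a factor of macrophage differentiation, was at 0.52 TPM on 30 reads in marrow monocytes, at 169 TPM on 6611 reads in cord monocytes and at 156 TPM on 6139 reads in APCs. Its log2 fold change of 8.23 (7.67 to 8.89) ranked 84 among the 10072 active genes, and was 6.80 on the ratio of TPM plus 1 and 8.56 with reads divided by effective length.

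Egr3, a related factor, had 1 read in marrow monocytes, 530 in cord monocytes and 830 in APCs, or 0.013, 9.23 and 15.0 TPM. The log2 fold change of 8.79 has an interval of 6.80 to 12.29, wide because of the single read. From cord monocytes to APCs it was 0.49 (0.30 to 0.68), and it was the least abundant member in each library. Egr2 was close to Egr1 in the cord but not in the marrow, giving 2.74% of the EGR sum in marrow monocytes, 45.3% in cord monocytes and 42.6% in APCs. The EGR sum itself was 19.0, 372 and 365 TPM.

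Batf, which is also induced in activated lymphocytes, did not follow the others. Its level was 39.5 TPM on 586 reads in marrow monocytes, 32.6 TPM on 428 reads in cord monocytes and 32.2 TPM on 474 reads in APCs. Its log2 fold change was 0.03 (-0.18 to 0.24) between the monocytes and -0.01 (-0.23 to 0.21) between the cord populations, so both intervals excluded a 2-fold change in either direction. Its share of the AP-1 members' summed TPM was 1.53% in marrow monocytes and 0.57% in cord monocytes.

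**Figure D3:**
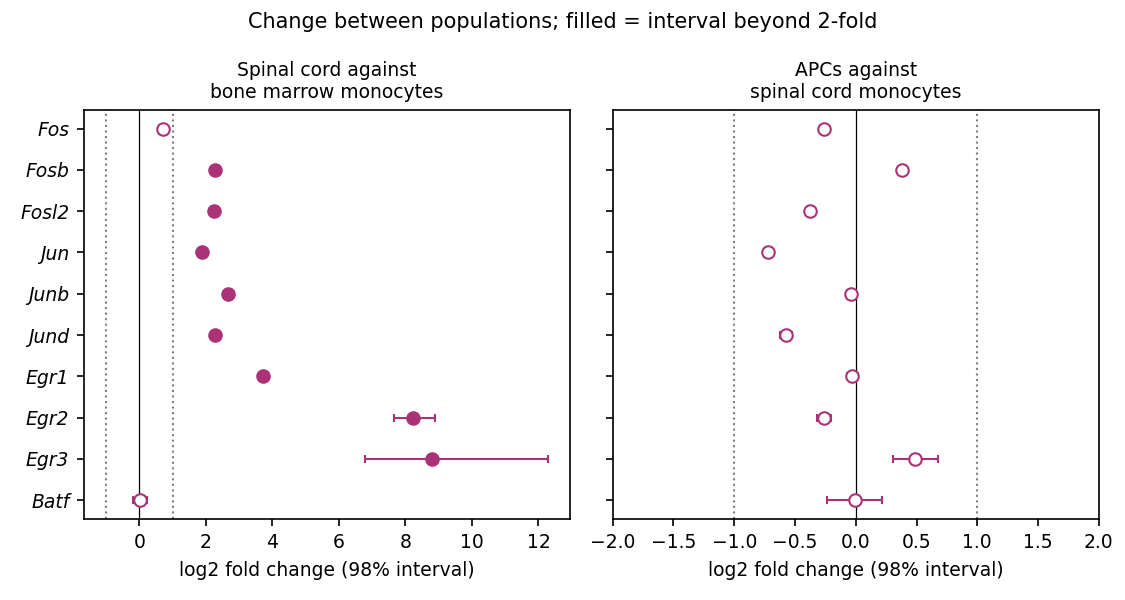
Log2 fold change of each gene with its 98% interval, for cord against marrow monocytes on the left and APCs against cord monocytes on the right, on different scales, with dotted lines at a 2-fold change and filled points for called genes. On the left 8 genes lie beyond 2-fold, from 1.89 for Jun to 8.79 for Egr3, and on the right all 10 lie within it.

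The order of the members also differed. In marrow monocytes the level fell from Fos through Junb, Jun, Jund, Fosb, Fosl2, Batf and Egr1 to Egr2 and Egr3, and Fos stood 4.83-fold above Junb. In cord monocytes Egr1 and Egr2 had moved past Batf, and Fos stood 1.23-fold above Junb. Neighbours in the order had intervals that did not overlap in any library, apart from Jund and Fosb in cord monocytes, at 365 and 358 TPM. In APCs Fosb stood above Jund, at 472 against 249 TPM, and Egr1 above Fosl2, at 195 against 165 TPM.

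Most other bZIP genes of the AP-1 group differed in the same direction. Of 13, 10 were called higher in cord than in marrow monocytes and none lower, with a median log2 fold change of 2.49. Only 10 of the 13 were above 3 TPM in marrow monocytes. The others were active through the cord library alone, which favours higher calls and a higher median. Maff, a small MAF protein, went from 0.92 to 214 TPM (log2 fold change 8.14), and Fosl1, the remaining FOS gene, from 0.39 to 12.5 TPM (5.65). Atf3, a stress-induced repressor, was the most abundant, at 43.9 TPM in marrow monocytes, 1499 in cord monocytes and 650 in APCs. It was called higher between the monocytes, with 5.52 (5.43 to 5.61), and was the only bZIP gene of the list called between the cord populations, lower in APCs at -1.06, a call that was lost with total reads and with an assumed coefficient of variation (CV) of 0.2.

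Batf2 was called higher in cord monocytes at 4.81, and Batf3, a dendritic cell factor, at 2.33, at 74.4 and 11.7 TPM there. Maf, a large MAF gene, was called higher at 2.49, Mafk at 3.08, Jdp2 at 2.23 and Atf4, the factor of the integrated stress response, at 1.80. Atf2, Atf7 and Mafg were not called, with log2 fold changes of -0.19, -0.71 and 0.07. Thus, like Batf, some bZIP genes of the same cells did not differ by the threshold.

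Among the EGR partners, Nab2, a corepressor that EGR proteins induce and that binds them, was called higher in cord monocytes. It was at 3.08 TPM in marrow monocytes, 49.8 in cord monocytes and 33.5 in APCs, a log2 difference between the monocytes of 4.57 (4.26 to 4.90). Nab1 was at 48.1, 61.2 and 41.9 TPM and was not called, at 0.65. Egr4 had no reads in the monocyte libraries and 3 in APCs, and Wt1 had none in any library, which allows at most 0.095 TPM of Wt1.

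Other immediate early genes were called higher almost throughout. Of 26 measured and 25 active, 24 were called higher in cord than in marrow monocytes and none lower, with a median log2 fold change of 3.42. In marrow monocytes 22 were above 3 TPM. The other active genes were so through the cord library alone, which favours higher calls and a higher median. The most abundant were Zfp36, which destabilizes AU-rich mRNAs, at 502 and 1703 TPM (2.11), Dusp1, a phosphatase of MAP kinases, at 466 and 1383 TPM (1.96), and Ier3 at 35.1 and 1569 TPM (5.79). The nuclear receptor genes Nr4a3 and Nr4a2 were at 0.23 and 3.78 TPM in marrow monocytes and 96.7 and 263 TPM in cord monocytes (9.0 and 6.97). Dusp5, a phosphatase of ERK, rose at 6.56, and Ccn1, with 0 reads in marrow monocytes and 159 in cord monocytes, was at least 74.0-fold higher against a floor of 3 reads. Klf2 was the active gene not called, at -0.01. From cord monocytes to APCs, Ier5 (-1.08) and Rhob (-1.07) were called lower and none higher, but neither was called with total reads or at an assumed CV of 0.2.

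Genes that act upstream of the members were called in both directions. Of 28 genes for MAP kinases, SRF, ELK, CREB and MEF2 factors, 27 were active, of which 1 was called higher and 3 lower, beside 13.8% and 10.7% of all active genes, with a median of 0.06. At an assumed CV of 0.2, 1 was called in all. The called genes were Crem, a CREB relative with inducible short forms, at 3.92 and 160 TPM (4.88), and the kinase genes Map2k6 (-1.92), Mapk14 for p38 (-1.47) and Rps6ka1 (-1.25). The abundant Mapkapk2, Mapk3 and Mef2a were not called, at 0.24, -0.36 and 0.54, and Srf was at -0.16. These are transcript levels, and kinase activity was not measured. From cord monocytes to APCs, Map2k3 was called lower, at -1.13, a call that was lost with total reads, with bounds at 0.001 and at an assumed CV of 0.2.

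Most genes known as targets of AP-1 or EGR factors were called higher in the cord. Of 24 measured, 23 were active and 21 of these were called higher in cord than in marrow monocytes, none lower, with a median of 5.63. Of the 24, 11 were above 3 TPM in marrow monocytes, and the others that were active were so through the cord library alone, which raises the count and the median. Thbs1, which encodes a matrix glycoprotein, was at 110 and 1491 TPM (4.23), Spp1, for osteopontin, at 7.56 and 749 TPM (6.93), and the chemokine gene Ccl2 at 97.9 and 1059 TPM (3.67). Vegfa, which encodes an angiogenic growth factor, had 54 reads in marrow monocytes and 25796 in cord monocytes (9.36). F3, for tissue factor, had 1 read against 828 (9.43, 7.44 to 12.93), and Timp1, with 0 against 801 reads, was at least 373-fold higher.

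Between the cord populations, targets were called in both directions. Mmp12, a macrophage elastase, was called higher in APCs, at 496 against 53.9 TPM (2.72), as was Pdgfb (1.43), while Ccl2 (-1.87) and Thbs1 (-1.27) were called lower, with the other 19 active targets not called. At an assumed CV of 0.2, 1 of these 4 calls was left, and at 0.4 none. Many of these genes also respond to NF-kB or hypoxia, and the part of AP-1 and EGR factors in their levels was not tested.

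**Figure D4:**
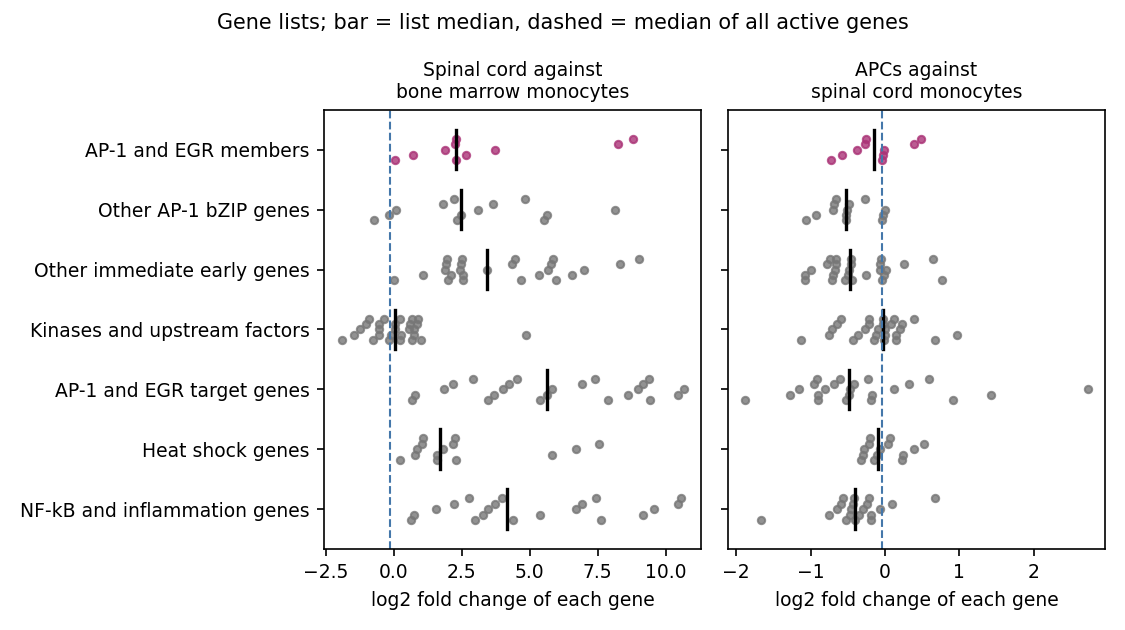
Log2 fold change of each active gene in 7 lists, with black bars for the list medians and a dashed line for the median of all active genes, for cord against marrow monocytes on the left and APCs against cord monocytes on the right. On the left the median of kinases and upstream factors, 0.06, lies near that of all genes, -0.15, and the other 6 medians lie between 1.70 and 5.63. On the right every list median lies between -0.52 and -0.03.

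Heat shock genes, which are induced by warming and handling as well as by inflammation, moved with the members. Of 14, 11 were called higher in cord than in marrow monocytes and none lower, with a median of 1.70, though 6 were called at an assumed CV of 0.2 and 3 at 0.4, and the list summed to 4295 TPM in marrow monocytes, 9951 in cord monocytes and 8827 in APCs. The inducible Hspa1a was at 28.3, 1272 and 1040 TPM (5.82) and its near-identical copy Hspa1b, between which reads may be split, at 14.1, 1158 and 976 TPM (6.68). Hspb1, active through the cord library alone with 1 read in marrow monocytes, was at 7.55 (5.55 to 11.06) and Dnajb4 at 2.29. The constitutive Hspa8 and Hsp90ab1 lay near the threshold, at 1.08 (1.06 to 1.09) and 1.04 (1.01 to 1.06), and Hspa5, the chaperone of the endoplasmic reticulum, was not called, at 0.86. Between the cord populations 0 of 14 were called, with a median of -0.09.

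Inflammatory genes driven by NF-kB moved as well. Of 20, 18 were called higher in cord monocytes and none lower, with a median of 4.18 and sums of 723, 14764 and 10859 TPM. Some of these genes, such as Ptgs2, were also counted among the AP-1 and EGR targets. While 16 of the 20 were above 3 TPM in marrow monocytes, the others were active through the cord library alone. That favours higher calls and a higher median. Il1b was at 6.37, 3821 and 2899 TPM (9.58), Cxcl2 at 33.1, 3315 and 2666 TPM (6.70) and Ccl3 at 145, 1138 and 1201 TPM (3.27). Il1a (10.56), Ccl5 (10.43, 8.98 to 12.59, on 3 reads in marrow monocytes) and Ptgs2 (9.14) had the other largest differences. Rela and Nfkb1, for subunits of NF-kB itself, were not called, at 0.62 and 0.75. In APCs Cxcl10 was called lower than in cord monocytes, at -1.66, though not at an assumed CV of 0.2. The heat shock and NF-kB lists thus both differed between marrow and cord in the direction of the AP-1 and EGR members. Their part in the members' difference was not tested.

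The members were short genes. In the gene annotation on GRCm38, the median gene span was 5.29 kb over the members against 22.7 kb over 10193 active genes with a gene model, and 8 of 10 spanned at most 10 kb, against 24.97%. The median number of exons was 2 against 9, and Jun, Junb and Jund had no intron, as did 2.48% of active genes. Fos, Jdp2 and Batf lay in this order on chromosome 12, all on the plus strand, with Fos at chr12:85473890-85477273 and Batf at chr12:85686669-85709087, which starts 209 kb beyond the end of Fos.

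The element ATTTA, which occurs in the 3′ UTR of many short-lived mRNAs, was counted in the main transcript of each gene. The median was 2.5 per 3′ UTR over the members and 1 over active genes, or 2.19 and 1.23 per kb. The share with at least 5 was alike, 20% of the members and 19.2% of active genes. Fosl2 had 8, Egr3 7, Fos and Jun 4 each, Egr2 3, Junb and Egr1 2 each, and Fosb and Jund 1 each. Batf had none. The longer form TTATTTATT was present in Fos and Fosl2, and in 7.09% of active genes. These counts describe the sequence and no decay was measured.

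The genes nearest to a member in pattern were sought among 10233 genes active in any comparison, by the distance over the log2 fold changes between the monocytes and between the cord populations, that is, over 3 libraries. Nearest to Fos were Spata2, Mroh1, Foxj3, Taok1 and Pnisr, with log2 fold changes between the monocytes of 0.69 to 0.75, and none of the 5 passed 35.4 TPM in any library, against at least 1665 TPM of Fos. Nearest to Egr1 were Got1, 1700017B05Rik, C2, Alpk2 and Lacc1. Got1, an aminotransferase gene, was at 11.0, 131 and 119 TPM (3.69 and -0.07).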

How the data were processed

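The data are from RNA-Seq of 3 pooled libraries. Per the methods, SALMON was run on GENCODE vM22 with isoforms pooled by gene, and the submitters' processing notes name Salmon 0.14.1 and mm10. The deposited TPM values were scaled by the authors to effective length and depth. The deposited estimated counts are not normalized and were rounded here to whole reads. The effective lengths deposited by the authors were used in 1 alternative. TPM was rescaled over the 22238 common genes, 99.0% of which had a symbol, and the APC values list fewer genes than the monocyte values, for which the methods give no reason.

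The log2 ratio of the 2 libraries compared was computed from a gamma posterior of reads plus 1, with bounds at percentiles 1 and 99, after the definition of GFold in the study's methods. The study's threshold of 2 on log2 TPM was read as 2 on log2 of TPM plus 1, or a TPM of 3. On plain log2 it would be a TPM of 4, which was run as an alternative. TPM has a 95% Wilson interval and a floor of 3 reads. The members and all lists were chosen with earlier results of these data known. The genes named are the members, all other AP-1 and EGR genes, the 3 most abundant and up to 4 most changed called genes of each other list, and 5 neighbours each of Fos and Egr1. Rela, Nfkb1, Srf, Klf2, Ier5, Rhob, Map2k3, Hspa1b, the marker genes and the genes overlapping a member were named for their role or as exceptions. The values of 2 genes that this rule names are not reported here. Ier2 was not analysed here, and Cyr61, Mkl1 and Mkl2 were matched under their current symbols Ccn1, Mrtfa and Mrtfb. Promoters came from RefSeq on GRCm38.p6. The steps were tested on simulated data. The tools were scipy 1.17.1, pandas 2.3.3, numpy 2.4.6 and matplotlib 3.10.9 on Python 3.11.15, and edgeR 4.0.16 on R 4.3.3 for TMM factors only.

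Alternatives were TMM factors, total reads, no TPM threshold or one of 4, reads per effective length, a spread assumed for each library with a coefficient of variation (CV) of 0.2 or 0.4, a bound at 0.001, 0.5 reads added, a plain 2-fold change, TPM ratios with a pseudocount of 1 or 0.1, TPM as deposited, genes without ribosomal, mitochondrial and Gm-numbered genes, and all genes of the monocyte libraries.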

Additional observations from a re-analysis of the deposited data

How the results depend on the processing

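No paired analysis was possible because each population is 1 library. For the same reason no replicate could be left out. Of 400 alternative values of the members' fold changes, 367 kept their direction and their side of the threshold. Many of these were bound to keep their direction. Alternatives that changed only the TPM threshold, the interval or the rule for a call left the fold change itself as it was. The stricter of them also could not add a call, so the count of 367 overstates how far the values were tested. The 8 called members were higher in cord than in marrow monocytes under every alternative run, including those that changed the fold change. With an assumed CV of 0.4, 3 members were called higher in spinal cord than in bone marrow monocytes in place of 8, namely the EGR genes, and the calls of Fosb (2.28), Fosl2 (2.26), Jun (1.89), Junb (2.66) and Jund (2.28) were lost, that of Jun also at a CV of 0.2. In APCs against bone marrow monocytes, 5 members were called at a CV of 0.2 and 3 at 0.4. The calls of Fosl2 (1.88), Jund (1.71) and Jun (1.16) were lost at both, and those of Fosb (2.67) and Junb (2.62) at 0.4. There Jun was also not called with total reads (1.03) or on TPM with a pseudocount of 1 (0.87) or 0.1 (0.87). Between the monocytes, the fold change of Egr2 ranged from 6.80 to 8.56 and that of Egr3 from 3.34 to 9.29. Of 204 alternative counts of calls in the gene lists, 32 moved by over 1.5 times. Between the monocytes, calls fell at a CV of 0.4 from 10 to 6 of the other bZIP genes, from 24 to 13 of the other immediate early genes and from 11 to 3 of the heat shock genes.

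Values near 0 that were not called changed sign. In spinal cord against bone marrow monocytes, Batf was at -0.15 with total reads, -0.035 with reads divided by length, -0.27 and -0.28 on TPM plus 1 and plus 0.1, and -0.22 over all genes of the monocyte libraries. In APCs against spinal cord monocytes, Junb was at 0.010 with total reads and 0.073 with lengths, Egr1 at 0.016, 0.087 and, on TPM with either pseudocount, 0.0044, and Batf at 0.036 and 0.065. In APCs against bone marrow monocytes, Batf was at -0.12 with total reads and -0.29 on TPM with either pseudocount. Relative to the main scaling, total reads moved the median of all active genes by -0.18 and TPM plus 1 by -0.22 between the monocytes.

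Over all genes, the calls between the monocytes were 2623 higher with no TPM threshold, 918 higher and 454 lower at a CV of 0.2, and 630 and 225 at 0.4. The share of higher among all calls was 56.4%, and 46.3% over all genes of the monocyte libraries. From spinal cord monocytes to APCs the calls were 385 and 292 with no threshold, 85 and 35 at a CV of 0.2, 43 and 14 at 0.4, 326 and 302 with a plain 2-fold change, and 320 lower with lengths, where the share of higher calls was 42.0% in place of 53.3%. In APCs against bone marrow monocytes they were 2870 higher with no threshold, 503 lower at a CV of 0.2, and 725 and 231 at 0.4. The depth limits Egr3 in bone marrow monocytes, whose level rests on 1 read.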
